A study of Mus musculus with 9 samples.

Results

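Ovulation depends on a short burst of transcription in the preovulatory follicle. Here 8 genes linked to that burst were described in whole mouse ovaries with and without estrogen receptor beta (ERβ). The genes were Areg, Ereg, Btc, Egfr, Has2, Tnfaip6, Ptx3 and Vcan, chosen by name as the EGF-like ligands, the EGF receptor and the matrix genes of the expanding cumulus. Each symbol had 1 row in the count table, so that 8 of 46078 genes were members. RNA-seq was available for ovaries of 5 WT and 4 ERβKO mice, which the submitters give as biological replicates, on a C57BL/6J background. The ERβKO mice carried a germline deletion of exon 3 of Esr2, made by crossing Esr2 flox mice (B6.129X1-Esr2tm1Gust) with a Rosa26-Cre deleter line and breeding heterozygotes. The WT mice were offspring without Cre. An age of 4 to 20 weeks is given for the mice of all experiments of the study, and the estrous cycle was not staged. The samples are labelled as untreated, although the protocol attached to them describes a diet and ligand experiment, so the diet of these mice is not known.

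After the surge of luteinizing hormone (LH), mural granulosa cells make the ligands amphiregulin (Areg), epiregulin (Ereg) and betacellulin (Btc), which are shed from the cell surface and activate the EGF receptor on cumulus cells. Cumulus cells then make hyaluronan through the synthase Has2 and cross-link it with the proteins of Tnfaip6 and Ptx3, while versican (Vcan) binds the hyaluronan chains, and the resulting gel expands the cumulus around the oocyte. The induction is brief and is limited to follicles that are about to ovulate, and an ovary taken without regard to the cycle may hold few such follicles or none.

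The 3 ligand genes lie together on chromosome 5 of GRCm38. Ereg spans 91074622 to 91093646 on the + strand, Areg 91139599 to 91148432 on the + strand and Btc 91357261 to 91402994 on the - strand, so that the cluster covers 328.4 kb. Egfr lies on chromosome 11 (16752203 to 16918158, + strand), Has2 on chromosome 15 (56665627 to 56694539, - strand) and Tnfaip6 on chromosome 2 (52038009 to 52056686, + strand). Ptx3 lies on chromosome 3 (66219910 to 66225805, + strand) and Vcan on chromosome 13 (89655312 to 89742509, - strand). Exons of Ereg share 141 bases (3.42%) with the antisense gene Gm19610, and those of Has2 share 182 bases (4.3%) with the antisense gene Has2os. The sources do not say if strand entered the counting, so reads on these bases cannot be assigned to 1 of the 2 genes. Exons of the other 6 members shared no base with another gene.

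Promoters from 250 bases before to 50 bases after the start were found for 6 of the 8 members in the RefSeq table for GRCm38.p6, with none for Ereg and Has2. Areg and Tnfaip6 are shown because only their promoters, among these 6, held any of the 5 motifs searched on both strands. The motif in capitals is the cAMP response element TGACGTCA in Areg, 61 to 54 bases before the start, and the AP-1 element TGANTCA in Tnfaip6, 142 to 136 bases before the RefSeq start at 52038113. That start lies 104 bases inside the gene as the files give it, so the element is 38 to 32 bases before the gene start given above, while for Areg both starts are the same.
Areg (chr5:91139512-91139571, + strand): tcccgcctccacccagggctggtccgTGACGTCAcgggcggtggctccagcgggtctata
Tnfaip6 (chr2:52037945-52038003, + strand): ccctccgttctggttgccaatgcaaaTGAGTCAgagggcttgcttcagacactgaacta
Of 32851 promoters of the same length, 1.79% held the cAMP response element and 7.81% the AP-1 element. The other motifs were TGTGGTT (RUNX, in 5.27% of promoters), CAAGGTCA (NR5A, 1.56%) and the palindromic estrogen response element (0.07%). The motifs do not overlap in the windows shown. A match describes these letters only and does not show that a factor binds.

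The libraries held 12353740 to 18717510 counted fragments. Esr2 was counted over its whole length, including exons that the deletion leaves, and spanned 12.4 to 23.9 FPKM among WT and 10.5 to 23.7 FPKM among ERβKO animals, so that it did not check the genotype labels. On the first principal component of log2 CPM, WT replicate 2 had a score of 9.41, the 4 remaining WT ovaries scored -45.5 to -16.3, and every ERβKO ovary scored higher than WT replicate 2, up to 36.8. The labelled tissue showed its markers: each gene of the oocyte, granulosa, luteal and stromal lists was above 0 in every ovary, and of the theca list only Insl3 was listed at 0 in any. Summed levels of 10 granulosa markers were higher in each ERβKO ovary (1062 to 1388 FPKM) than in each WT ovary (782 to 950 FPKM). For 10 luteal markers the sums were 2592 to 4080 FPKM in ERβKO and 3135 to 6755 FPKM in WT ovaries, and for 5 adipocyte markers 95.9 to 734 FPKM and 82.0 to 175 FPKM. In a whole ovary, fewer cells of a type and less RNA per cell cannot be told apart. The part of these shifts in the values of the members was not tested.

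The 8 genes covered a wide range of levels, and their order was shared by the ovaries at its upper end. In FPKM, which is scaled for gene length, the mean over all 9 ovaries was 14.6 for Vcan, 7.65 for Egfr and 2.16 for Areg, and these 3 stood in this order in 9 of 9 ovaries with no overlap of their ranges. Below them came Btc (0.742), Ereg (0.521), Ptx3 (0.507) and Tnfaip6 (0.444), whose ranges overlapped. Btc exceeded Ereg in 8 of 9 ovaries, but Ereg exceeded Ptx3 in only 4 of 9 and Ptx3 exceeded Tnfaip6 in 5 of 9, so the order of the last 3 was not resolved. Has2 had the lowest mean (0.151) and was the lowest member in every ovary except ERβKO replicate 4, where Tnfaip6 was lowest. Among the mean levels of all 16722 genes tested, Vcan stood at percentile 73.4, Egfr at 54.8, Areg at 26.7, Btc at 13.3, Ereg at 9.63, Ptx3 at 9.32 and Tnfaip6 at 8.12, with Has2 below them.

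Has2 was the member nearest to the detection limit. It was the only member that did not pass edgeR's filter on low counts, which here asks for about 0.672 CPM in at least as many libraries as the smaller group holds. A count of 3, taken as the floor, corresponded to 0.157 to 0.248 CPM depending on the library, and Has2, with 4 fragments in 2 of the WT ovaries, came closest to it. The lowest count in any ovary was 10 for Tnfaip6 and Ptx3, 19 for Ereg, 24 for Areg and 33 for Btc, all above the floor. The mean level of Btc, Ereg, Ptx3, Tnfaip6 and Has2 was below 1 FPKM in both genotypes, the minimum that the study sets for a differentially expressed gene, so that a call was open only to Areg, Egfr and Vcan.

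Areg, which encodes amphiregulin, was detected in every ovary at 24 to 120 fragments. In the order of the replicates, which is kept throughout, the WT ovaries gave 1.17, 2.94, 1.78, 1.64 and 1.65 FPKM and the ERβKO ovaries 1.88, 3.62, 2.40 and 2.32 FPKM. WT replicate 2 stood above 3 of the 4 ERβKO ovaries, while the other 4 WT ovaries stood below all of them, so the groups overlapped through 1 ovary. Mean levels were 1.84 ± 0.66 (WT) and 2.56 ± 0.75 FPKM (ERβKO; SD, n = 5 and 4). All log2 fold changes are given as ERβKO over WT. For Areg it was 0.51 (SE 0.27, 95% interval -0.095 to 1.12), with an adjusted p = 0.334 in the quasi-likelihood test of edgeR after Benjamini-Hochberg correction over all genes. An exact two-sided permutation test gave p = 0.0952, where 0.00794 is the smallest value that splits of 9 ovaries into 5 and 4 allow. Without WT replicate 2 the log2 fold change was 0.76 and the adjusted p of the same edgeR test was 0.0806, and without ERβKO replicate 2 they were 0.31 and 0.647, both p-values above the threshold of 0.05.

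Ereg, encoding epiregulin, was counted at 19 to 87 fragments. The 5 WT ovaries had 0.287, 0.542, 0.496, 0.390 and 0.443 FPKM, and the 4 ERβKO ovaries 0.473, 0.558, 1.13 and 0.373 FPKM. ERβKO replicate 3 stood apart at the top, and the other 3 ERβKO ovaries lay within or just above the WT range. Means were 0.431 ± 0.099 and 0.633 ± 0.34 FPKM (SD, n = 5 and 4). The estimated log2 fold change of 0.59 (SE 0.34, 95% interval -0.17 to 1.35) did not pass the test (adjusted p = 0.372, edgeR). Without ERβKO replicate 3 the log2 fold change was 0.13.

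Btc, encoding betacellulin, was counted at 33 to 68 fragments. Its values were 0.647, 0.754, 0.670, 0.875 and 0.622 FPKM in the WT and 0.990, 0.941, 0.494 and 0.681 FPKM in the ERβKO ovaries. The ERβKO ovaries held both the 2 highest FPKM values and the lowest one. The CPM scale, which comes from the counts, differed at the lower end. There ERβKO replicate 3, the lowest in FPKM, ranked 4 of 9 from the top (2.87 CPM), and WT replicate 5 was lowest (2.66 CPM). The highest CPM was only 1.41 times the lowest, against 3.16 times for Areg and 4.30 times for Ereg. The coefficient of variation of Btc within the genotypes was 9.77% in WT and 15.5% in ERβKO ovaries. Counting error alone gives 15.5% and 13.9%, so the WT value was below it and the ERβKO value near it. Its log2 fold change of 0.18 (SE 0.17, 95% interval -0.20 to 0.56) gave an adjusted p = 0.598 in edgeR, and was 0.10 without ERβKO replicate 1.

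Egfr, which encodes a receptor of the 3 ligands, was well measured at 952 to 1959 fragments. The WT values were 7.28, 7.05, 9.95, 6.22 and 5.38 FPKM, and the ERβKO values 8.32, 7.73, 8.17 and 8.76 FPKM. The ERβKO values were closely spaced within the wider WT range, with WT replicate 3 highest and WT replicate 5 lowest of all. Means were 7.18 ± 1.7 and 8.24 ± 0.43 FPKM (SD, n = 5 and 4). Egfr had a log2 fold change of 0.20 (SE 0.14; adjusted p = 0.470, edgeR), and its 95% interval of -0.11 to 0.51 corresponds to 0.924 to 1.42 times the WT level. Without WT replicate 3 the log2 fold change was 0.34 (adjusted p = 0.0664 in edgeR), and without WT replicate 5 it was 0.12 (0.714).

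**Figure D1:**
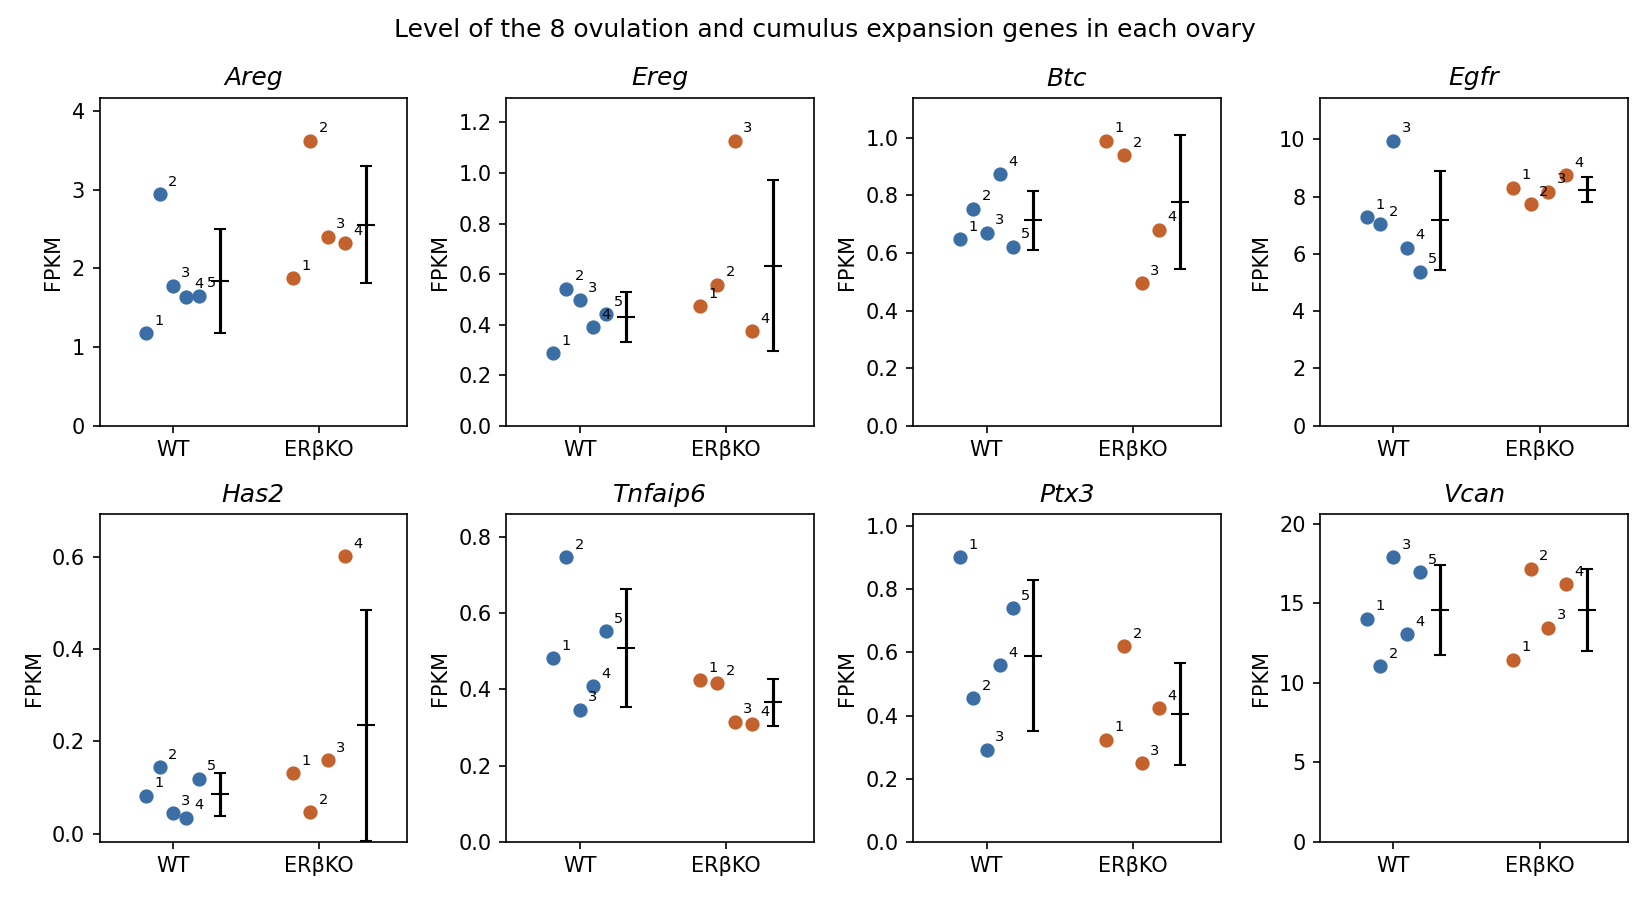
FPKM of each gene (vertical axis, linear, its own scale in each panel) in the 5 WT (blue) and 4 ERβKO (orange) ovaries. Each point is 1 ovary with its replicate number and the black bars are the mean ± SD. The genotypes overlap in all 8 panels, and single ovaries such as ERβKO replicate 3 for Ereg (1.13) and ERβKO replicate 4 for Has2 (0.602) lie far above the rest.

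Has2, the synthase that makes the hyaluronan of the cumulus matrix, was counted 6, 14, 4, 4 and 9 times in the WT ovaries and 11, 5, 11 and 44 times in the ERβKO ovaries. The corresponding levels were 0.082, 0.144, 0.044, 0.034 and 0.119 FPKM in WT and 0.131, 0.046, 0.158 and 0.602 FPKM in ERβKO ovaries. Of the 9 ovaries 8 had at most 14 fragments, and ERβKO replicate 4 stood alone, at 3.18 CPM against 0.262 to 0.854 CPM in the others. With no filter on low counts the log2 fold change was 1.22 (95% interval -0.15 to 2.59; adjusted p = 0.427 in edgeR), and without ERβKO replicate 4, an alternative added after the data were seen, it was 0.15 (-1.04 to 1.34; adjusted p = 0.932). Has2os, the antisense gene, had 6 fragments in ERβKO replicate 4 and 0 to 14 in the other ovaries, so it was not high where Has2 was. Leaving out ERβKO replicate 2 instead gave 1.58 (95% interval 0.24 to 2.92; adjusted p = 0.270 in edgeR), so the estimate turned on single ovaries and the test was passed in none of these fits.

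Tnfaip6 encodes a secreted protein that transfers heavy chains onto hyaluronan. It was counted at 10 to 28 fragments, and its levels were 0.480, 0.746, 0.346, 0.408 and 0.553 FPKM in the WT and 0.424, 0.415, 0.315 and 0.309 FPKM in the ERβKO ovaries. The 3 highest values were all WT, but WT replicates 3 and 4 lay among the ERβKO ovaries. The means of 0.507 ± 0.15 and 0.366 ± 0.062 FPKM (SD, n = 5 and 4) corresponded to a difference of -0.39 on the log2 scale (SE 0.27, 95% interval -0.98 to 0.20; adjusted p = 0.446 in edgeR). Its coefficient of variation was 27.7% in WT and 13.9% in ERβKO ovaries, where counting error alone gives 24.0% and 26.3%. Without WT replicate 2 the log2 fold change was -0.23.

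Ptx3, a pentraxin that binds the heavy chains and stabilises the matrix, was likewise counted at 10 to 28 fragments. Its values were 0.902, 0.456, 0.292, 0.559 and 0.739 FPKM among the WT and 0.324, 0.621, 0.249 and 0.424 FPKM among the ERβKO ovaries. The ranges overlapped over most of their length. On the log2 scale the genotypes differed by -0.50 (SE 0.35, 95% interval -1.27 to 0.27; adjusted p = 0.457 in edgeR).

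Vcan, the hyaluronan-binding proteoglycan, was the most abundant member at 2234 to 4044 fragments. It stood at 14.0, 11.1, 17.9, 13.0 and 16.9 FPKM in the WT and 11.5, 17.2, 13.5 and 16.2 FPKM in the ERβKO ovaries. Both genotypes spread over nearly the same range, with means of 14.6 ± 2.8 and 14.6 ± 2.6 FPKM (SD, n = 5 and 4). Its log2 fold change was -0.050 (SE 0.16; adjusted p = 0.896 in edgeR), with a 95% interval, -0.41 to 0.31, that amounts to 0.753 to 1.24 times the WT level. The sign of this value was kept in 11 of 17 alternative settings, and that of each of the other 6 tested members in 17 of 17. These settings refit the same ovaries, and the 95% interval of every tested member includes 0. No member's sign was therefore fixed by the data.

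In the comparison of the genotypes, 0 of the 7 tested members were called. A call needs a corrected p below 0.05, a log2 difference beyond 0.4 either way and more than 1 FPKM on average in either genotype. The last condition left a call open only to Areg, Egfr and Vcan. Of the 7 members, 0 had an unadjusted p under 0.05 in edgeR, as 19.8% of all genes tested had. Over all genes tested, 1.72% were called (287 genes, 153 higher and 134 lower in ERβKO ovaries). With DESeq2, the tool of the study, 0 members were called while 4.78% of all genes were. The genotypes did not separate completely for any of the 8 members, and did so for 7.96% of all genes tested. The 3 ligand genes and Egfr had positive log2 fold changes and the hyaluronan genes Tnfaip6, Ptx3 and Vcan negative ones, none past the threshold. Has2, the hyaluronan synthase, was not tested here and had a positive one of 1.22 in the fit with no filter on low counts. The negative sign of Vcan was kept in only 11 of 17 alternative settings, so the matrix genes did not share a direction. The median over the 7 was 0.18, with -0.00089 over all genes tested. The upper bounds of Ereg and Areg were 2.54 and 2.17 times the WT level and the lower bound of Ptx3 was 0.414 times it, so that changes of that size were not resolved with these 9 ovaries.

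**Figure D2:**
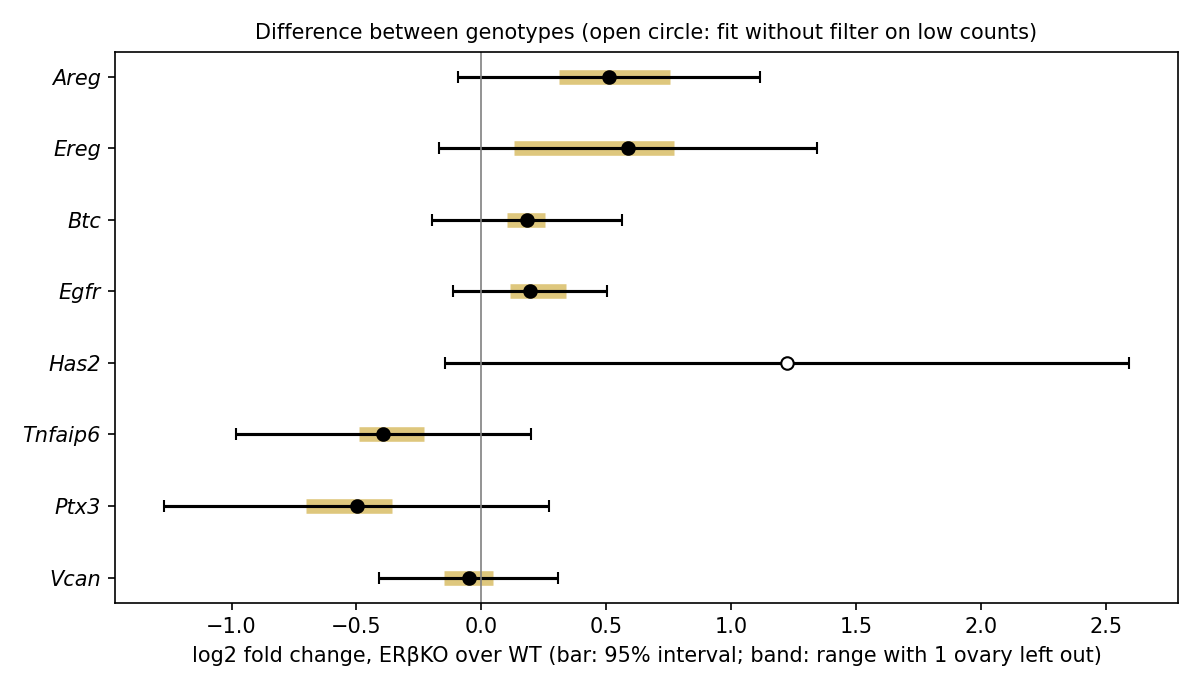
Log2 fold change of each gene, ERβKO over WT (horizontal axis), as a point with its 95% interval from edgeR. The yellow band is the range over the 9 fits that leave out 1 ovary, and Has2 (open circle, no band) comes from the fit with no filter on low counts; every interval includes 0, and the band of Vcan (-0.15 to 0.05) crosses it.

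The members did not share their highest ovary. The highest CPM was in ERβKO replicate 2 for Areg, 3 for Ereg, 1 for Btc and 4 for Has2, and in WT replicate 2 for Tnfaip6, 1 for Ptx3 and 3 for Egfr and Vcan. Among the WT ovaries alone, replicate 2 was highest for Areg (5.13 CPM), Ereg (2.98), Has2 (0.835) and Tnfaip6 (1.67). It was not the highest WT ovary for Btc, Egfr and Ptx3, and it was the lowest for Vcan. Of the 28 pairs of members, 14 had a positive Pearson correlation of log2 CPM over the 9 ovaries, given here as a description. Areg and Ereg, the neighbouring ligand genes, had r = 0.56 (Spearman's rho 0.72) and r = 0.41 with the genotype means removed. Egfr and Ptx3 had the strongest relation, r = -0.84 (rho -0.88), although Ptx3 rests on few fragments.

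Areg, the ligand with the most fragments, had its highest correlations, of either sign, with epithelial and endothelial markers. Against the mean log2 CPM of 8 markers of oviduct and surface epithelium, shown because it was the highest among the 9 marker lists, its correlation was r = 0.90 (rho 0.95), 0.85 with the genotype means removed and 0.76 without the 2 ovaries farthest from its median, WT replicate 1 and ERβKO replicate 2. With 6 endothelial markers it was -0.88 (rho -0.90), -0.84 with the genotype means removed and -0.72 without the same 2 ovaries, and with 10 granulosa markers 0.69. The 3 genes with the pattern most like Areg, of 14395 compared, were Lrrc46 (r = 0.97), 1700026L06Rik (0.97) and Agr3 (0.97), with 0.90, 0.89 and 0.99 without those 2 ovaries. The points share library and depth, and the part of epithelium in the Areg values was not tested. The mean log2 CPM of the epithelial markers was 7.41 to 7.65 in ERβKO ovaries, 7.60 in WT replicate 2 and 6.82 to 7.38 in the other WT ovaries, the same layout as that of Areg, and 7 of the 8 markers had positive log2 fold changes, with 0 called. Their summed FPKM, 1435 to 2561 in WT and 1721 to 2121 in ERβKO ovaries, came mostly from Ovgp1, the marker with a negative one.

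For the other tested members no Pearson correlation with a marker list over the 9 ovaries was stronger than 0.83. Btc had its highest correlation with adipocyte markers (r = 0.78, and 0.71 with the genotype means removed), which dropped to 0.37 without ERβKO replicates 1 and 2. Its correlation with luteal markers was nearly as strong and negative (r = -0.77, and -0.69 with the genotype means removed), at -0.22 without the same 2 ovaries. The genes most like Btc were 2310034G01Rik (0.96), Retn (0.93), the adipokine resistin, and Lrig1 (0.93). Egfr correlated with oocyte markers (0.83) and with stromal markers (0.81), which dropped to 0.58 and 0.49 without WT replicates 3 and 5. With the genotype means removed these 2 correlations were 0.78 and 0.89. Egfr was most like Add3 (0.98), Twsg1 (0.96) and Slit3 (0.96). For Ereg, the highest was with granulosa markers (0.65), at 0.795 with the genotype means removed and 0.31 without WT replicate 1 and ERβKO replicate 3. The genes most like Ereg were Tvp23b (0.96), 1110001J03Rik (0.94) and Enc1 (0.94). Those most like Tnfaip6 were Mrps18b (0.93), Zbtb6 (0.92) and Ebna1bp2 (0.91), those most like Ptx3 were Impact (0.96), Zcchc4 (0.93) and Eme2 (0.92), and those most like Vcan were Ptar1 (0.96), Tipin (0.93) and Yeats4 (0.91). Without the 2 ovaries farthest from the median of each member, the correlations with these most similar genes were 0.78 to 0.97. These genes, like those of Areg, were picked as the highest of 14395 over the same ovaries, so this is no independent check.

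**Figure D3:**
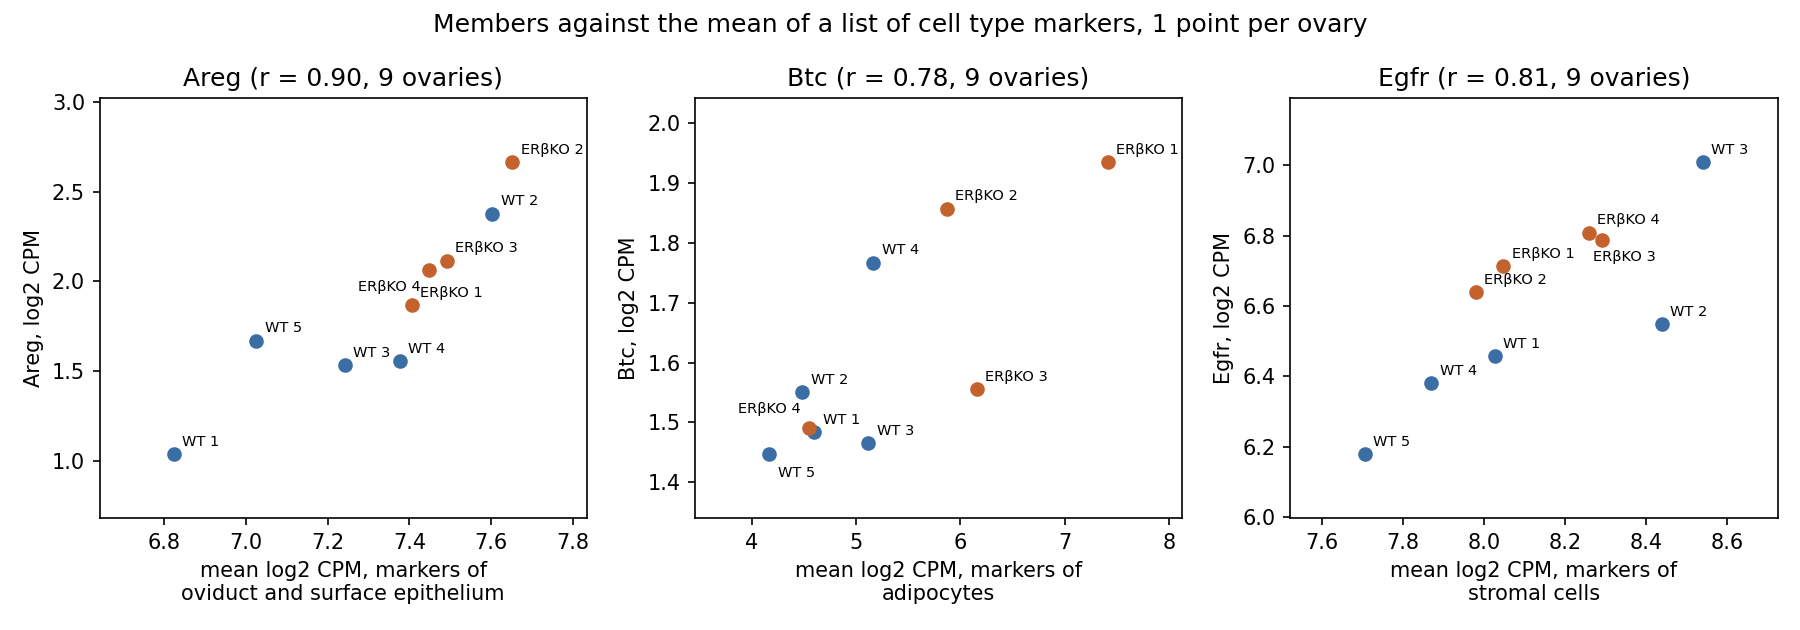
Log2 CPM of Areg, Btc and Egfr (vertical axes) against the mean log2 CPM of a marker list (horizontal axes) in the 5 WT (blue) and 4 ERβKO (orange) ovaries, 1 labelled point per ovary. Areg rises with the epithelial markers over both genotypes (r = 0.90), while the relation of Btc with adipocyte markers rests on ERβKO replicates 1 and 2.

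The pathway around the members was read from 4 lists. Of 16 further genes of the EGF family, its receptors and shedding, 15 were tested and 0 were called, with a median log2 fold change of -0.021 and 4 genes at an unadjusted p under 0.05, against 19.8% of all genes tested. Hbegf, another EGFR ligand, had levels of 2.70 ± 0.78 (WT) and 2.20 ± 0.51 FPKM (ERβKO), and Erbb2, the partner receptor of EGFR, had 6.47 ± 1.3 and 8.12 ± 1.2 FPKM (SD, n = 5 and 4; adjusted p = 0.505 and 0.224 in edgeR).

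In the list of the hyaluronan matrix and versican cleavage, 20 genes were tested, 1 was lower and 0 were higher in ERβKO ovaries, with a median log2 fold change of -0.022. Of these 20, 5 had an unadjusted p under 0.05 in edgeR. Over all genes tested, 19.8% had such a p and 1.72% were called. The lower gene was Cemip, which encodes a protein that binds and depolymerises hyaluronan. The WT ovaries gave 43.2, 15.1, 32.9, 32.3 and 42.3 FPKM of Cemip and the ERβKO ovaries 3.17, 1.07, 5.73 and 6.68 FPKM. Every ERβKO ovary lay below every WT ovary, and WT replicate 2 was the lowest of the WT ovaries. This ovary also had the lowest luteal marker sum of the WT ovaries (3135 FPKM), and the part of luteal cells in the Cemip value was not tested. Cemip fell by 3.02 on the log2 scale (SE 0.51; adjusted p = 0.0185 in edgeR), and was called in 16 of 17 alternative settings, the exception being the libraries numbered below 200. Acan, which encodes the hyaluronan-binding proteoglycan aggrecan and is named after its values were seen, had 0.209 to 0.531 FPKM in WT and 0.805 to 1.42 FPKM in ERβKO ovaries, with no overlap. Its log2 fold change was 1.34 (SE 0.29; adjusted p = 0.0460 in edgeR), and in this fit only its ERβKO mean of 0.999 FPKM, just under the minimum of 1, kept it from a call. Over the 17 alternative settings its log2 fold change was 0.509 to 1.455. The adjusted p of these edgeR, DESeq2 and limma fits was 0.000694 to 0.142, so it passed 0.05 in some and not in others. It was called in 0 of 17, as the FPKM minimum applies in each. Cd44, a hyaluronan receptor, did not pass the test (log2 fold change 0.12, adjusted p = 0.772 in edgeR). Adamts1, a protease that cleaves versican, stood at 21.5 FPKM in WT replicate 3, also the ovary with the most Vcan, and at 5.87 to 8.14 FPKM in the other 8 ovaries (log2 fold change -0.44, adjusted p = 0.542 in edgeR).

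Of 24 genes that respond to the LH surge, 21 were tested (median log2 fold change -0.021), of which 1 was higher and 2 were lower in ERβKO ovaries. An unadjusted p under 0.05 in edgeR was found for 6 of the 21. Over all genes tested, 19.8% had such a p and 1.72% were called. Runx1, a transcription factor induced before ovulation, fell by 0.99 on the log2 scale from 8.71 ± 2.3 to 4.39 ± 0.42 FPKM, and Runx2 fell by 3.57 from 28.0 ± 19 to 2.32 ± 0.58 FPKM (adjusted p = 0.0158 and 0.0185 in edgeR). Cebpa, a transcription factor of granulosa cells and of adipocytes, was higher at 10.2 ± 3.4 against 4.77 ± 0.82 FPKM in WT (log2 fold change 1.09, adjusted p = 0.0363 in edgeR), a call kept in 7 of 17 alternatives. Runx1 kept its call in 14 and Runx2 in 13 of 17. The adipocyte markers given above were also highest in 3 ERβKO ovaries, and their part in the Cebpa value was not tested. Luteal marker sums were 2592 to 4080 FPKM in ERβKO and 3135 to 6755 FPKM in WT ovaries, and their part in the Runx1 and Runx2 values was not tested.

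Of the genes induced by or sensing the surge itself, Pgr, Ptgs2 and Lhcgr were not called. Pgr, the progesterone receptor that is induced by LH in mural granulosa cells, had 7.02 FPKM in WT replicate 2, 1.03 to 2.42 FPKM in the other WT ovaries and 2.73 to 4.36 FPKM in the ERβKO ovaries. Its log2 fold change was 0.53 (adjusted p = 0.586 in edgeR), and without WT replicate 2 it was 1.30 with an adjusted p of 0.0107, so that 1 ovary decided the call. The same ovary was also highest for Tnfaip6 and second highest for Areg. Ptgs2, the cyclooxygenase of ovulation, was measured at 0.339 to 1.06 FPKM and 31 to 104 fragments, with WT replicate 2 highest. Its log2 fold change was 0.027 (adjusted p = 0.971 in edgeR). Lhcgr, the LH receptor of luteal and mature granulosa cells, varied from 21.7 to 248 FPKM (log2 fold change -0.26, adjusted p = 0.851 in edgeR).

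The list of oocyte factors, which enable cumulus cells to expand, and of their receptors and effectors gave 0 calls among 8 tested genes, with a median log2 fold change of 0.18. The oocyte factor Gdf9 had means of 17.3 ± 7.9 (WT) and 28.2 ± 17 FPKM (ERβKO), and the other, Bmp15, had 5.30 ± 1.9 and 7.26 ± 1.9 FPKM (SD, n = 5 and 4; adjusted p = 0.383 and 0.391 in edgeR).

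**Figure D4:**
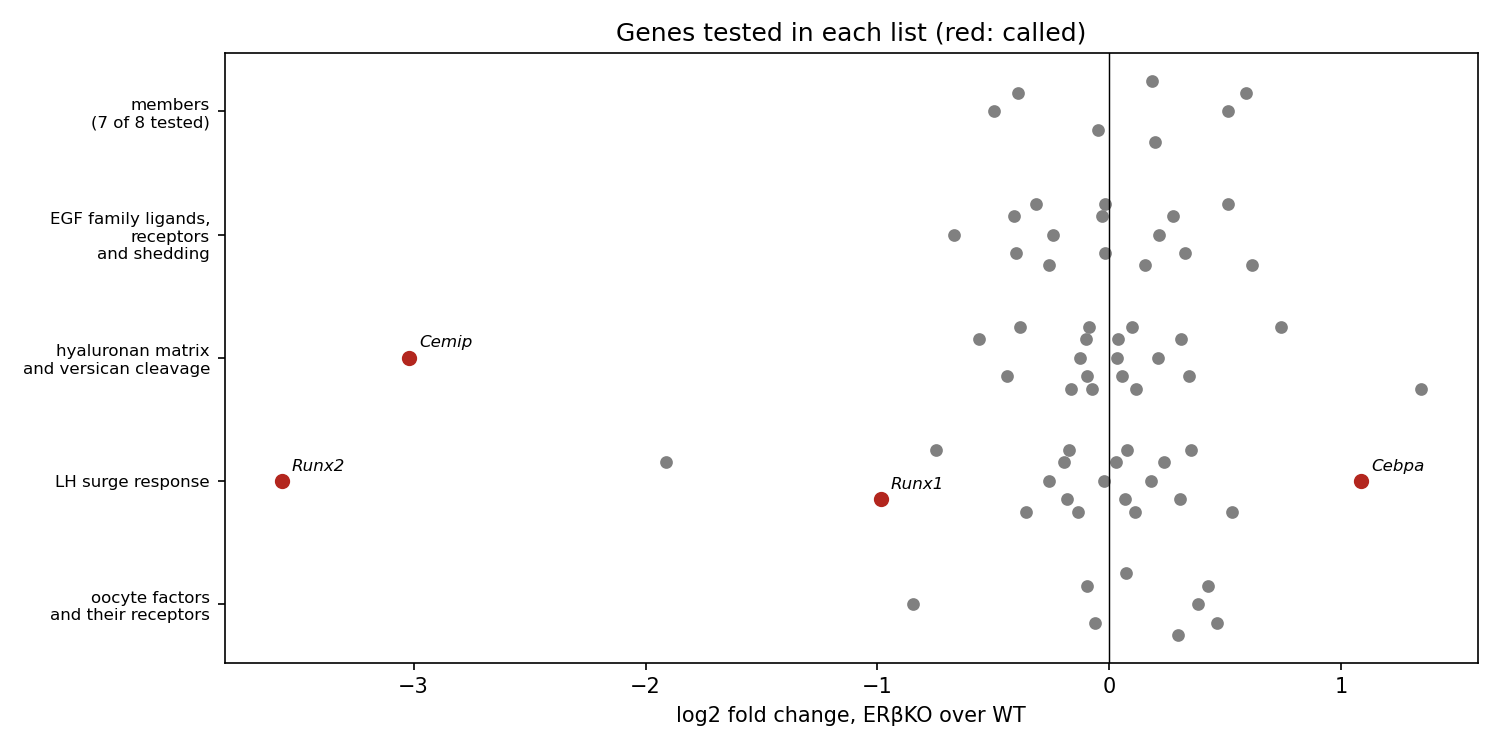
Log2 fold change of each tested gene, ERβKO over WT (horizontal axis), for the members and the 4 lists around them (rows, with points spread vertically only to separate them). Grey points were not called and red points were. The 7 members lie between -0.50 and 0.59, and the called genes are Cemip, Runx1, Runx2 and Cebpa.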

How the data were processed

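RNA-seq of whole ovaries from 5 WT and 4 ERβKO mice was analysed. Per the study's methods, the authors made stranded poly-A libraries, sequenced read pairs and mapped them to GRCm38 with STAR; the labels also list bcl2fastq 2.20.0.422 and Trim Galore, and other versions are not given in the sources used here. The deposited counts are raw fragments per gene from featureCounts, and the deposited FPKM values were calculated by the authors with StringTie. No libraries were merged.

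Genotypes were compared on the counts with edgeR 4.0.16 in R 4.3.3 (filterByExpr, TMM, quasi-likelihood test, genotype as the factor) over 16722 genes, with Benjamini-Hochberg adjustment. Genes were called by the study's criteria, and its tool, DESeq2 1.42.0, was an alternative, with limma 3.58.1 on log2(FPKM + 1) and log2(FPKM + 0.1). CPM were TMM-scaled, with a prior count of 1 on the log2 scale. Single genes were compared over all splits of the 9 ovaries by an exact permutation test on the absolute difference of the means. The common biological coefficient of variation was 0.179. The fits were tested on simulated counts with 200 genes changed. Coordinates and exon overlaps came from the files and GENCODE M21. Floors cover counting error only.

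The members, gene lists and tests were chosen with earlier results of these data known. The genes named are the members, called genes of the lists, 9 further genes (Pgr, Ptgs2, Lhcgr, Adamts1, Cd44, Erbb2, Gdf9, Bmp15, Hbegf), and for each tested member the 3 genes with the highest correlation over the 9 ovaries among genes with a mean log2 CPM above 1. Marker lists covered 9 cell types. Proteins are not shown.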

Additional observations from a re-analysis of the deposited data

How the results depend on the processing

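The members gave 0 calls in each of the 17 alternative settings, but the FPKM minimum left a call open only to Areg, Egfr and Vcan. The smallest adjusted p of any tested member in these settings was 0.0664 (Egfr in edgeR, without WT replicate 3). Of the 7 tested members, 6 kept their direction in all settings, which reuse the same ovaries. The log2 fold change of Vcan reversed to 0.016 with the replicate block, 0.0021 with limma on log2(FPKM + 1) and 0.0025 with limma on log2(FPKM + 0.1), and lay between -0.15 and 0.048 with 1 ovary left out. The genes called over the whole table numbered 800 with DESeq2, 155 with the replicate block, 51 with only the libraries numbered below 200 (WT replicates 1 to 3 and all ERβKO), 191 with limma on log2(FPKM + 1), and 60 (without ERβKO replicate 2) to 912 (without WT replicate 2) with 1 ovary left out. For the EGF family list the count was 1 with DESeq2 (Tgfa) and 0 to 1 with 1 ovary left out; for the oocyte factors and their receptors it was 1 with DESeq2 and 1 with no filter (the receptor Tgfbr1), and 0 to 1 with 1 ovary left out. The hyaluronan list had 2 calls with the replicate block (Cemip and Adamts5) and 0 in the libraries below 200; the LH surge list had 0 there, 4 with DESeq2 and 4 with no filter (both with Star added), and 0 to 5 with 1 ovary left out. Tgfa, Tgfbr1, Adamts5 and Star (log2 fold change -1.91, adjusted p = 0.0573 in edgeR) are named after their values were seen. The causes were not tested. Ovaries with the same replicate number did not vary together (correlations 0.0962, 0.127, -0.0362 and -0.00478 for numbers 1 to 4), so the block has no basis beyond the number. The depth limits Has2, Tnfaip6 and Ptx3 most, with 4 to 44, 10 to 28 and 10 to 28 fragments per ovary.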
